A study of Rattus norvegicus with 4 samples.

Results

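The insulin-like growth factor (IGF) axis was examined through 10 genes: the ligands Igf1 and Igf2, the receptors Igf1r and Igf2r, and the binding protein genes Igfbp1 to Igfbp6. All probe sets that the platform annotation assigns to these symbols were taken, which gave 24 of the 8799 probe sets on the array and 9 of the 4736 genes named by a single symbol; no probe set was annotated to Igfbp4, whose expression was not analysed here. Total RNA of 2 rat prostate cancer cell lines was measured, Mat-Lylu, described as highly metastatic, and G, described as non-metastatic. Both derive from the Dunning R3327 rat prostatic tumour, and each group is a single established line with no treatment, genotype or age in the labels. Each line had 2 arrays numbered 0 and 1, called duplicates with no mention of separate cultures, and the p-values therefore cover only array-to-array spread, which may be technical.

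IGF-I and IGF-II are secreted ligands that activate the receptor tyrosine kinase encoded by Igf1r, which signals through insulin receptor substrates to the PI3 kinase and Akt pathway and through Ras to the ERK kinases. The Igf2r product has no kinase; it takes IGF-II into the cell for breakdown and carries mannose 6-phosphate tagged enzymes to lysosomes. The binding proteins hold the ligands in fluid or on matrix and are cut by proteases that free them. In the prostate, stromal cells are a known source of IGF-I and of binding proteins, and the receptor is known to support growth and survival of epithelial and tumour cells.

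Mat-Lylu cells had lower signals than G cells for Igfbp5, Igfbp6 and part of the Igf1 probe sets, while the receptor genes and Igfbp2 differed little. The largest differences were those of an Igfbp5 probe set, 5.21-fold lower, and of an Igf1 probe set, 4.82-fold lower. Of the 24 probe sets, 20 passed the filter on low signals and entered the test. In Mat-Lylu 7 of these 20 were lower, 4 of them by 2-fold or more, and 0 were higher at an adjusted p under 0.05 (limma on log2(signal + 16), Benjamini-Hochberg over all 6555 tested probe sets). Over all tested probe sets, 20.3% were called lower and 13.9% higher. The 7 lower sets are not 7 genes, since 3 were of Igfbp5 and 2 of Igf1. Taken by the brightest tested set of each gene, only Igfbp5 and Igfbp6 were lower among the member genes. Igf1, Igf2, Igf1r, Igf2r, Igfbp1 and Igfbp2 did not pass when taken in this way, and Igfbp3 had no tested set. By the same rule 19.7% of all 3866 genes were lower. At an unadjusted p under 0.05, 8 members were lower in Mat-Lylu, the added one being the Igf1 set X06107_r_at. At that threshold 2 were higher, Igf2r and 1 probe set of Igfbp2. The share of all probe sets at an unadjusted p under 0.05 was not computed. These counts therefore have no background to be read against. The median log2 difference (Mat-Lylu minus G) was -0.12 over the 20 members and -0.03 over all 6555.

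**Figure D1:**
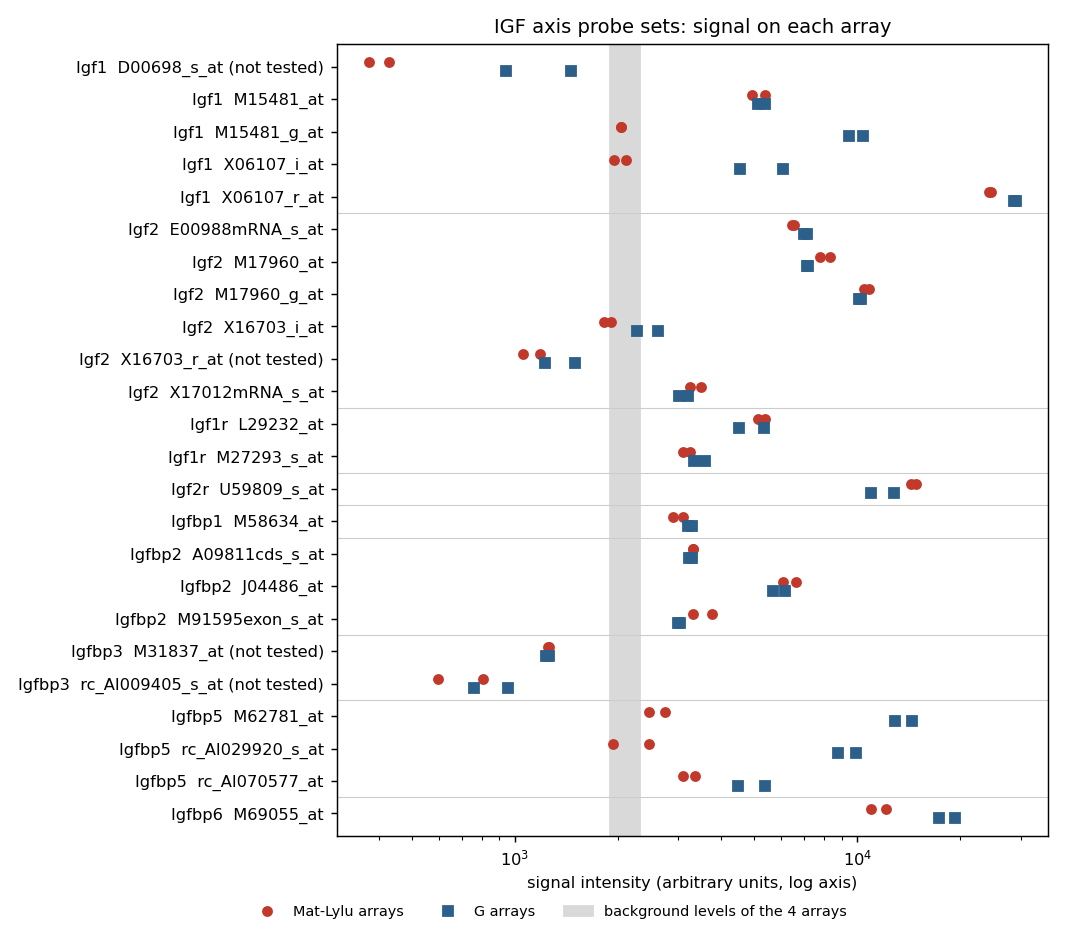
Signal intensity on each array (log axis) for the 24 probe sets, with Mat-Lylu arrays as circles above the G arrays as squares in each row. The grey band spans the background levels of the 4 arrays, 1891 to 2311; all 3 Igfbp5 sets, the Igfbp6 set and 2 tested Igf1 sets had both Mat-Lylu arrays well to the left of both G arrays.

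Signals are linear MAS5 intensities without a fixed unit, and every fold is computed on the log2(signal + 16) scale. A probe set was counted as above background on an array where it exceeded the 95th percentile of 23 bacterial, yeast and mouse control probe sets there. Arrays of the same line differed with an SD of 0.17 (Mat-Lylu) and 0.18 (G) on the log2 scale, against 0.75 to 0.76 between lines. The number of arrays limits the precision, and an exact permutation of 2 arrays against 2 cannot go below p = 0.333 for a single value. No member was saturated on any array. Signals of different probe sets cannot be set against each other, because probes differ in brightness.

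Igfbp5 encodes a binding protein that attaches to extracellular matrix, and all 3 of its probe sets were lower in Mat-Lylu. The set M62781_at read 2466 and 2741 on the Mat-Lylu arrays and 14417 and 12864 on the G arrays. Both Mat-Lylu arrays lay close to background and the lines did not overlap. The log2 difference was -2.38 (SE 0.10, limma adjusted p = 1.0e-06), a 5.21-fold lower signal. The set rc_AI029920_s_at read 2461 and 1929 in Mat-Lylu, with 1 of these arrays above background, and 9888 and 8758 in G. It was 4.25-fold lower in Mat-Lylu (log2 difference -2.09, SE 0.13, limma adjusted p = 9.5e-06). The third set, rc_AI070577_at, read 3091 and 3364 in Mat-Lylu and 5369 and 4492 in G. Its fall was smaller, 1.52-fold (log2 difference -0.60, SE 0.11, limma adjusted p = 0.0033), and its 95% interval of -0.85 to -0.36 does not reach those of the other Igfbp5 sets, which lie below -1.79. The sign was therefore shared by all 3 sets and the size was not.

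Igfbp6 encodes a binding protein that prefers IGF-II, and its single probe set M69055_at was also lower in Mat-Lylu. It read 12115 and 10985 in Mat-Lylu against 19345 and 17284 in G, well above background on all 4 arrays. The lines did not overlap. The fall was 1.58-fold (log2 difference -0.66, SE 0.10, limma adjusted p = 0.0016).

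The other measured binding protein genes did not pass the test. Igfbp2, which encodes a binding protein abundant in fetal tissue and serum, had 3 tested sets with log2 differences of 0.02, 0.10 and 0.23. The set with the largest of these, M91595exon_s_at, read 3315 and 3762 in Mat-Lylu and 3000 and 3028 in G, apart on every array (unadjusted p = 0.040, limma adjusted p = 0.10; 95% interval 0.01 to 0.44). The set A09811cds_s_at read 3300 and 3320 in Mat-Lylu and 3278 and 3230 in G. The set J04486_at overlapped between the lines, at 6054 and 6612 in Mat-Lylu and 5670 and 6159 in G. Igfbp1, best known as an insulin-regulated liver gene, read 3087 and 2889 in Mat-Lylu and 3297 and 3209 in G (log2 difference -0.12, 95% interval -0.32 to 0.07). Igfbp3, the main carrier of IGFs in serum, was under background on all 4 arrays with both of its sets, which the filter left out; M31837_at read 1248 and 1256 in Mat-Lylu and 1260 and 1232 in G, and rc_AI009405_s_at read 808 and 597 in Mat-Lylu and 951 and 757 in G. No level of Igfbp3 could be told from background in either line.

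**Figure D2:**
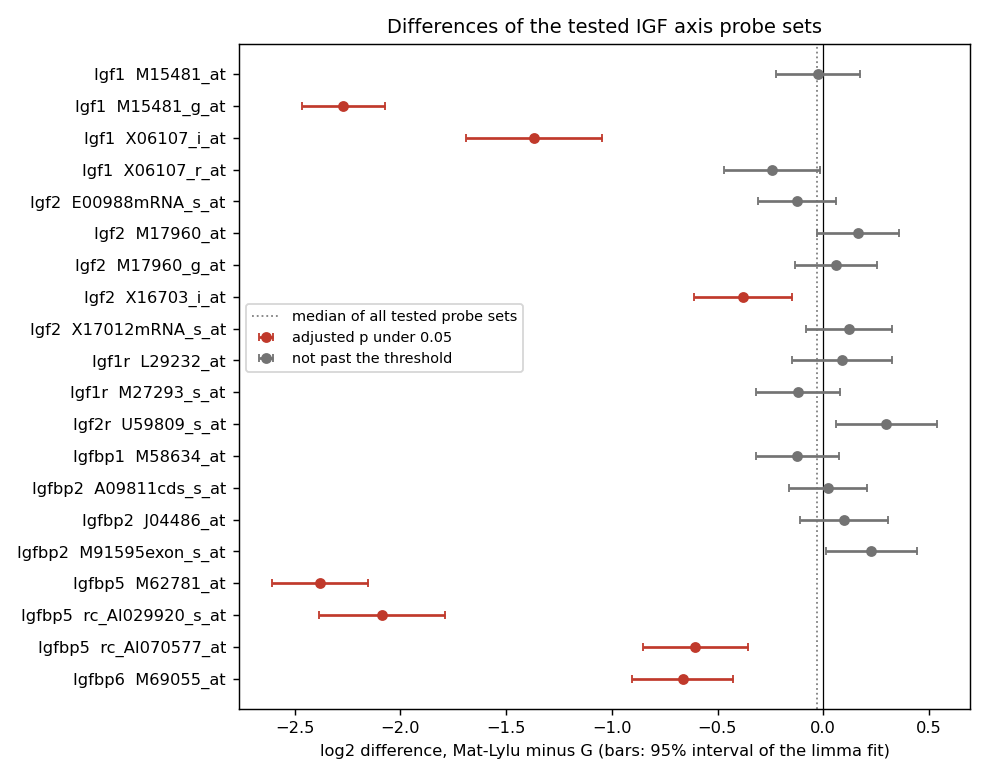
Log2 difference, Mat-Lylu minus G, of the 20 tested probe sets with the 95% interval of the limma fit; red marks an adjusted p under 0.05 and the dotted line is the median of all tested probe sets, -0.03. The 7 red sets, all left of 0, are the 3 of Igfbp5, that of Igfbp6, 2 of 4 for Igf1 and 1 dim set of Igf2; the grey interval of the Igf1 set X06107_r_at also lies left of 0.

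The ligand gene Igf1 gave readings that depended on the probe set. The set M15481_g_at read 2039 and 2042 in Mat-Lylu, with 1 array above background, against 10370 and 9453 in G. It was 4.82-fold lower in Mat-Lylu (log2 difference -2.27, SE 0.08, limma adjusted p = 6.2e-07). The set X06107_i_at read 1942 and 2108 in Mat-Lylu, again with 1 array above background, and 6078 and 4535 in G, a 2.58-fold fall (log2 difference -1.37, SE 0.14, limma adjusted p = 0.00016). In contrast M15481_at, which shares the first part of its name with M15481_g_at, overlapped between the lines. It read 4932 and 5359 in Mat-Lylu and 5114 and 5358 in G (log2 difference -0.03, 95% interval -0.23 to 0.17). The bright set X06107_r_at read 24297 and 24649 in Mat-Lylu and 29084 and 28758 in G and did not pass (log2 difference -0.24, SE 0.10, limma adjusted p = 0.099). The fifth set, D00698_s_at, was under background on all 4 arrays and left out by the filter, at 428 and 374 in Mat-Lylu and 1459 and 940 in G. Thus 2 of the 4 tested Igf1 sets fell, none rose, and the intervals of the 2 that fell do not meet those of the other 2. The stretch of the Igf1 transcript read by each set was not analysed here. In Affymetrix naming, _i and _r mark sets with fewer or less selective probes, and _s and _f sets can match related transcripts.

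Igf2, the fetal growth ligand, showed little difference. Its sets M17960_at and M17960_g_at read 7774 and 8300, and 10820 and 10439, in Mat-Lylu, against 7193 and 7148, and 10121 and 10256, in G. Their log2 differences were 0.16 (95% interval -0.03 to 0.36) and 0.06 (-0.13 to 0.26). E00988mRNA_s_at read 6514 and 6436 in Mat-Lylu and 7108 and 6991 in G (log2 difference -0.12, 95% interval -0.31 to 0.06). X17012mRNA_s_at read 3244 and 3503 in Mat-Lylu and 3192 and 3003 in G (log2 difference 0.12, 95% interval -0.08 to 0.33). None of these 4 sets passed, and their signs were mixed. The set X16703_i_at passed as lower in Mat-Lylu. It read 1824 and 1910 there, under background on both arrays, and 2609 and 2270 in G, so its fall is a bound of at least 1.16-fold (fitted log2 difference -0.38, SE 0.10, limma adjusted p = 0.021). This call was lost with signals raised to the background level (adjusted p = 0.32) and without Mat-Lylu replicate 0 (0.088) or G replicate 0 (0.088). The last set, X16703_r_at, was under background throughout, at 1182 and 1052 in Mat-Lylu and 1498 and 1227 in G.

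Neither receptor gene passed. For Igf1r, L29232_at overlapped, at 5113 and 5356 in Mat-Lylu and 5355 and 4525 in G (log2 difference 0.09, 95% interval -0.15 to 0.32). Its other set M27293_s_at read 3104 and 3254 in Mat-Lylu and 3585 and 3325 in G (log2 difference -0.12, 95% interval -0.32 to 0.08). Both intervals include 0. Igf2r, read by U59809_s_at, was higher on each Mat-Lylu array, at 14374 and 14817, than on the G arrays, at 12810 and 10982. Its log2 difference of 0.30 (SE 0.10, unadjusted p = 0.021, limma adjusted p = 0.060) did not pass; it passed with quantile normalization (0.0097), with median scaling (0.021) and without G replicate 0 (0.012). Both Mat-Lylu arrays lay below both G arrays for 11 of the 20 tested members, against 39.2% of all tested probe sets, and above them for 6 of 20, against 28.6%; the lines overlapped for 3.

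**Figure D3:**
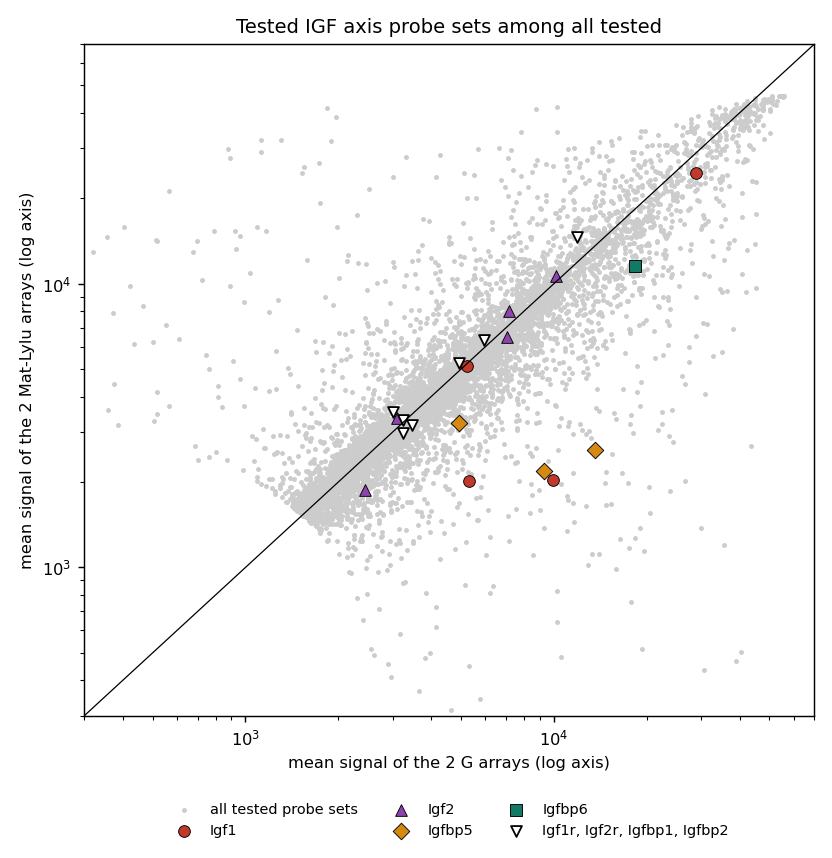
Mean signal of the 2 Mat-Lylu arrays against that of the 2 G arrays (both axes log) for the 6555 tested probe sets in grey, with the tested IGF axis sets marked by gene. Igfbp5 (diamonds), Igfbp6 (square) and 2 of the Igf1 sets (circles) lie below the line of equal signal; Igf2, the receptors, Igfbp1 and Igfbp2 lie near it.

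Markers of fibroblasts and stroma moved in the same direction as Igfbp5, Igfbp6 and 2 of the 4 tested Igf1 sets. The brightest Igf1 set, X06107_r_at, did not pass. Of 9 such markers measured, 8 were lower in Mat-Lylu and none higher, where 19.7% of the 3866 genes tested by their brightest probe set were lower and 14.1% higher. Their summed signal was 33263 and 33789 on the Mat-Lylu arrays and 172260 and 179166 on the G arrays, lowest first. Most of the Mat-Lylu sum came from Acta2, which read 21319 and 20981 there and 21506 and 26352 in G. No marker was at 0 on any array; Lum, Col1a2, Dcn, Thy1 and Pdgfra were under background on both Mat-Lylu arrays, and Acta2 was the member that did not pass. The part of these markers in the IGF axis results was not tested. In RNA of whole cultures, fewer cells of a type and less RNA per cell cannot be told apart. Of 8 epithelial markers measured, Krt8 and Tjp1 were higher in Mat-Lylu and none was lower. Their summed signal was 63811 and 64421 in Mat-Lylu and 20995 and 23799 in G, lowest first, a difference carried mostly by Krt8 alone (41435 and 41521 in Mat-Lylu, 1978 and 1691 in G). Cldn3, Krt5, Krt18 and Krt19 did not pass, and Epcam, Krt14 and Krt19 were under background on all 4 arrays. The prostate secretory marker Pbsn, the only one of 5 measured, was under background on all 4 arrays. None of the tested leukocyte (4), endothelial (2) or hepatocyte (5) markers passed. Of those measured, 2 of 6 leukocyte, 2 of 3 endothelial and 1 of 5 hepatocyte markers were under background on all 4 arrays. Among the rest, the leukocyte marker Cd8a read 6601 and 7772 in Mat-Lylu and 7097 and 6490 in G. Whether such signals above background reflect expression was not tested.

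By the distance between log2 profiles centred over the 4 arrays, the genes most like the Igfbp5 set M62781_at were Pros1 (distance 0.05), Tagln (0.11), Akr1c14 (0.12), Lhx2 (0.14) and Igf1 itself through M15481_g_at (0.16). Those most like M15481_g_at were Pde3b (0.07), Ccl2 (0.09), Dnph1 (0.12), Mgmt (0.13) and Akr1c14 (0.13). Those most like X06107_i_at were Kcnk1 (0.09), Bdh1 (0.10), Lamb2 (0.13), Lgr4 (0.14) and Pcmtd1 (0.15). For the Igfbp5 set rc_AI029920_s_at they were Gaa (0.17), RT1-S3 (0.17), Mgmt (0.19), Cstb (0.20) and Tap1 (0.21). Other sets of the same gene were left out of this search. The Igfbp5 set rc_AI029920_s_at lay at 0.46 from the Igfbp5 set M62781_at, further than the genes named for it. With 4 arrays in 2 lines the distance mostly reflects the size of the difference between lines.

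Igfbp2 and Igfbp5 are next to each other among the protein-coding genes of chromosome 9 in the RefSeq annotation of the GRCr8 assembly, and so are Igfbp1 and Igfbp3 on chromosome 14. The neighbours Igfbp5 and Igfbp2 had separate readings here, with all 3 Igfbp5 sets lower in Mat-Lylu and none of the 3 Igfbp2 sets past the threshold. Lower calls held in all alternatives run for Igfbp5, for Igfbp6 and for 2 of the 4 tested sets of Igf1. The 250 bases before the annotated start are shown for these 3 genes, and for Igfbp2 as the neighbour of Igfbp5 (RefSeq, GRCr8). They run 5′ to 3′ along the gene, with each CG pair in capitals. Igf1 is known to be transcribed from more than 1 start, and this window belongs to only 1 of them.
Igfbp5, chr9:81914188-81914437, minus strand: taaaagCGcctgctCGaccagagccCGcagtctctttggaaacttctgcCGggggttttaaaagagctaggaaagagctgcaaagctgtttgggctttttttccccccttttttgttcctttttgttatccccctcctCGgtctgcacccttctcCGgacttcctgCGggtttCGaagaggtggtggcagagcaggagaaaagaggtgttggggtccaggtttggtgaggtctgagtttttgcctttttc
Igfbp6, chr7:135154669-135154918, plus strand: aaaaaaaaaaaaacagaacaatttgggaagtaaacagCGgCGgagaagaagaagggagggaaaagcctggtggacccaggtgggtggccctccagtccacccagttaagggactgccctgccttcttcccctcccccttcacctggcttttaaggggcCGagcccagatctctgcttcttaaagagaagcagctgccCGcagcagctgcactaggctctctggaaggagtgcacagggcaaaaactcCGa
Igf1, chr7:24172282-24172531, plus strand: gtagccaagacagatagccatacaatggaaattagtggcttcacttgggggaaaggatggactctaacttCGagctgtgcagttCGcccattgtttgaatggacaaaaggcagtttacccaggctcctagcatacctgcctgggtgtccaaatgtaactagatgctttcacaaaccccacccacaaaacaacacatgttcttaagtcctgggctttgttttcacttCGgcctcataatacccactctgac
Igfbp2, chr9:81864561-81864810, plus strand: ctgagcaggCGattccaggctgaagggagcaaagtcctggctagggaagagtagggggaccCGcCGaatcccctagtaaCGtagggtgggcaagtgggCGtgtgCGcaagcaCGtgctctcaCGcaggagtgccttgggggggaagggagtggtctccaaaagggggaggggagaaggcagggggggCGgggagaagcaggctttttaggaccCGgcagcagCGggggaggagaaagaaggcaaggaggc

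The windows of Igf1, Igfbp6 and Igfbp5 held 3, 5 and 8 CG pairs and had a GC content of 46.8%, 54.8% and 51.6%. The median over 33469 rat promoter windows of the same length was 5 CG pairs and a GC content of 51.2%. Igfbp1 held 9 CG pairs, Igfbp2 11, Igfbp4 21, Igf2r 23, Igfbp3 31 and Igf1r 45, and the windows of Igf2 held 15 and 7. Of all windows, 99.7% held no more CG pairs than that of Igf1r. The 10 genes had 11 windows, since Igf2 had more than 1. Searched on both strands, the GC box GGGCGG was in a window of Igf1r, Igf2, Igf2r and Igfbp2, 4 of the 10 genes. It was in 30.5% of all windows. For Igf2, only the window with 7 CG pairs held the GC box. The windows of Igf1, Igfbp5 and Igfbp6 held none. The TATA box TATAAA was found only in that of Igfbp4 (12.9% of all windows) and the CCAAT box CCAAT only in that of Igfbp1 (34.0%). The E-box CANNTG, which reads the same on both strands, was in 7 of 10 (65.5% of all windows), Igf1 and Igfbp6 among them, and the AP-1 site TGANTCA was in none (6.34%). No match of a motif shared bases with a match of another in these windows, and a match is a description of letters, not a site.

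Genes that surround the receptor were described from 5 lists holding 88 symbols, of which 50 had a probe set and 44 were tested by their brightest one. In Mat-Lylu 7 were higher and 5 lower, and 32 did not pass, where 14.1% of all tested genes were higher and 19.7% lower. No count below is read as particular to its list. The lists had a median log2 difference of 0.03 against -0.02 over all 3866 genes. Among ligand and receptor neighbours, 1 of 5 rose and 1 fell. The growth hormone receptor gene Ghr, whose product drives Igf1 transcription in liver, fell 1.75-fold, with 9344 and 9900 in Mat-Lylu and 17558 and 16127 in G (log2 difference -0.81, SE 0.09, limma adjusted p = 0.00033). Its other 2 sets were under background on all 4 arrays. Ins2, which encodes insulin, passed as 1.28-fold higher on 1 of its 3 sets, and lost the call without Mat-Lylu replicate 1 (adjusted p = 0.12) or G replicate 1 (0.13). The insulin receptor gene Insr did not pass, at 3446 and 4144 in Mat-Lylu and 3521 and 3421 in G.

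Where 14.1% of all genes were higher and 19.7% lower, 1 of 5 tested genes of secreted partners rose and none fell. That gene was Esm1, or endocan, once grouped with the binding proteins for its sequence, at 13950 and 14551 in Mat-Lylu and 524 and 501 in G, under background there and so at least 6.88-fold higher (limma adjusted p = 2.1e-08). Igfals, which encodes the acid-labile subunit of the serum IGF complex, had 3 sets with log2 differences of -0.07, 0.04 and 0.08, and none passed. Pappa and Igfbp7 were not analysed here.

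Among receptor adaptors, 1 of 11 tested genes rose and none fell, against 14.1% higher and 19.7% lower over all genes. Sos1, the exchange factor that loads Ras, was 1.55-fold higher in Mat-Lylu on its brightest set, with 9131 and 9565 against 5515 and 6553 in G (limma adjusted p = 0.0021), and its other set rose as well. The receptor substrate gene Irs1 was under background on all 4 arrays and not tested, at 1470 and 1350 in Mat-Lylu and 1731 and 1353 in G.

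In the PI3 kinase and Akt branch 2 of 17 rose and 3 fell, shares near those of all genes (14.1% higher, 19.7% lower). Akt2, a kinase of this branch, rose 1.84-fold with 5611 and 4186 in Mat-Lylu against 2628 and 2627 in G (limma adjusted p = 0.0015), and both of its sets passed. Eif4ebp1, a translation repressor that the branch switches off, was lower with all 3 sets, by 1.27-fold to 1.96-fold, the brightest by 1.38-fold. The call of that brightest set was lost without Mat-Lylu replicate 1 (adjusted p = 0.093). Rheb, the GTPase that activates mTOR, fell 1.64-fold on 1 of its 2 sets (limma adjusted p = 0.0011). Bcl2l1, which encodes the survival protein Bcl-xL, rose 1.39-fold and lost that call without Mat-Lylu replicate 1 (adjusted p = 0.067). Tsc2, the inhibitor of Rheb, fell 1.26-fold; its name is given here outside the rule for named genes, chosen once its values were known.

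In the Ras and ERK branch 2 of 6 rose and 1 fell, against 14.1% higher and 19.7% lower over all genes. The ERK phosphatase gene Dusp6, itself known to be induced by ERK, was at least 10.2-fold higher on its brightest set (limma adjusted p = 1.2e-05). It read 21911 and 20525 in Mat-Lylu and 805 and 324, under background, in G. Dusp1, also in this list, is named outside the rule for named genes. Its brightest set did not pass (log2 difference -0.23, limma adjusted p = 0.089). Its set S74351_s_at was at least 1.05-fold lower, with Mat-Lylu under background (limma adjusted p = 4.4e-05). The third Dusp1 set was under background on all 4 arrays. The kinase genes that activate ERK moved apart. Map2k1 was 1.82-fold higher, with 18502 and 13854 in Mat-Lylu against 9426 and 8188 in G (2 of 3 sets passed). Map2k2 was 1.75-fold lower, with 12685 and 10987 in Mat-Lylu against 21772 and 19667 in G (3 of 3 sets).

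**Figure D4:**
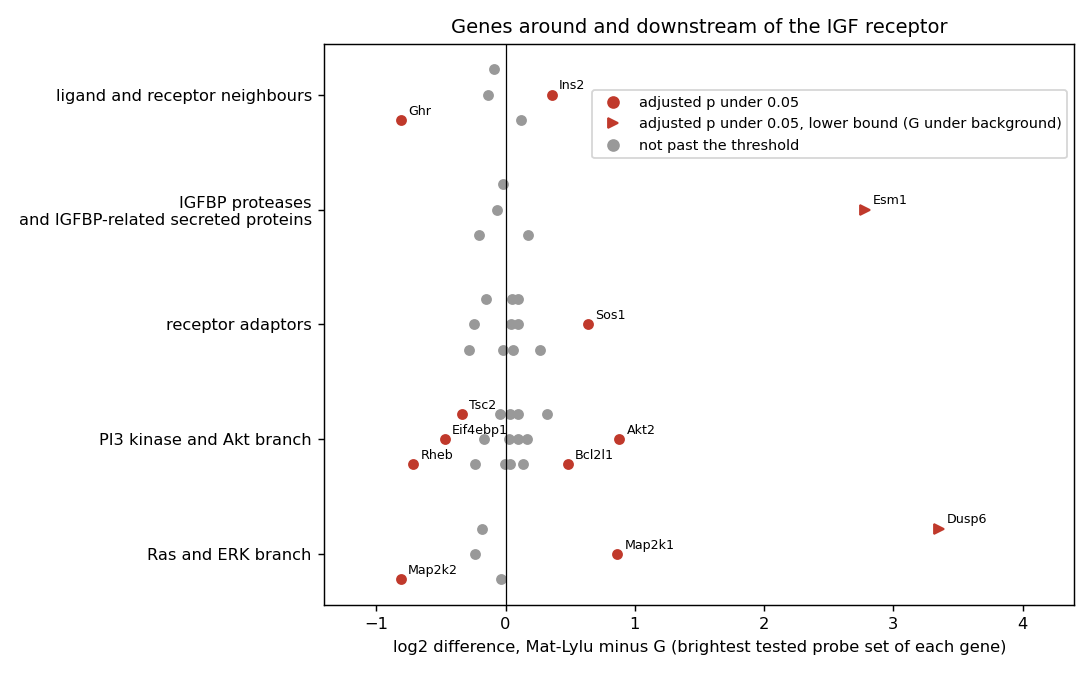
Log2 difference, Mat-Lylu minus G, of the 44 tested genes of the 5 lists, each by its brightest tested probe set; red marks an adjusted p under 0.05, and a triangle a lower bound where G was under background. The 2 triangles, Esm1 and Dusp6, are the genes past 2-fold; the other called genes lie between 1.26-fold and 1.84-fold.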

How the data were processed

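Total RNA of the Mat-Lylu and G lines had been made into biotinylated cRNA and hybridised to Affymetrix rat oligonucleotide arrays, per the labels' protocols. The authors deposited 1 table of linear probe set signal intensities for the 4 arrays; the submitters' processing notes name MAS5, without a version, scaling target or filter. Array medians ran from 3001 to 3160, and trimmed means (2% off each tail) differed by at most 7.89%, under the 10% set for rescaling, so the values were used as deposited.

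Symbols came from the platform annotation (7006 probe sets other than controls with 1 symbol, 308 with several, 1426 with none); 6985 of the first kind matched by gene identifier to RefSeq (GRCr8). The 59 controls and the 25% of other probe sets with the lowest mean signal were left out. The remaining 6555 were tested in limma 3.58.1 (R 4.3.3) with lmFit and eBayes with an intensity trend, 2-sided, on log2(signal + 16). The procedure was checked on simulated data with independent normal noise. Differences were planted only in probe sets brighter than the median, so the check does not cover signals near background.

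Every member probe set was named; of each list, up to 4 genes with the smallest p that passed, and Insr, Irs1, Igfals, Igfbp7 and Pappa; and for members changed by 2-fold or more the 5 genes of nearest profile. The members, lists and rules were chosen with earlier results of these data known. Alternatives were pseudocounts of 1 and 64, no filter or 50% left out, quantile and median scaling, no intensity trend, a floor at background, leaving out each array in turn, and blocking on the replicate number.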

Additional observations from a re-analysis of the deposited data

How the results depend on the processing

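Of the 7 calls among IGF axis probe sets, 6 (the 3 of Igfbp5, that of Igfbp6, and M15481_g_at and X06107_i_at of Igf1) kept their direction and passed in all 13 alternatives, with adjusted p-values of at most 0.018; the exception was the dim Igf2 set given above. The count of members lower in Mat-Lylu ranged from 6 to 8. With no filter, 8 of 24 members were lower, where 1489 of all 8740 probe sets were lower under the same setting. The added member was the Igf1 set D00698_s_at (log2 difference -1.51, limma adjusted p = 0.00069), which is under background on all arrays. The count of members higher was 1 with quantile normalization and 1 with median scaling, and 0 to 1 with an array left out; the set was that of Igf2r. The Igf1 set X06107_r_at passed as lower with quantile normalization (log2 difference -0.17) and without G replicate 1 (-0.25). Signs turned for sets close to 0: Igf1 M15481_at had 0.022 with quantile normalization, 0.020 with median scaling and -0.086 to 0.034 with an array left out, and Igf1r L29232_at had -0.033 to 0.21 with an array left out. The cause was not tested. With 1 array left out, the lone array of a line is assumed to vary like the other line. The labels give both lines the numbers 0 and 1; deviations of same-numbered arrays correlated at 0.16 over 6555 probe sets, with only 1 such value obtainable, so the numbers were not taken as pairs. With the replicate block, 7 members were lower and 0 higher. Over all 6555 probe sets, 908 were higher and 1330 lower, against 1136 and 1180 with quantile normalization and 1081 and 1193 with median scaling, so the excess of lower calls depends on the scaling. Signals near background limit Igfbp3, Irs1, D00698_s_at, X16703_i_at and, in Mat-Lylu, M15481_g_at, X06107_i_at and rc_AI029920_s_at; with signals raised to background, M15481_g_at had -2.18 and X06107_i_at -1.30.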
